A study of Mus musculus with 2 samples.

Results

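The 52 genes described here are the immediate early genes and heat shock chaperones of mouse nephron progenitor cells. They are all protein-coding genes in the deposited table whose symbol is a Fos or Jun family name, Atf3, Egr or Ier with a number, or a name of the Hsp70, Hsp110, small heat shock, Hsp60, Hsp90 or J-domain families. They were chosen by name from the genes of the table, with earlier results of these data known. They make up 52 of the 10617 genes of the table. The GENCODE mouse annotation holds 87 protein-coding names that fit, and the other 35 are not analysed here. No gene of the table has a corrected p-value above 0.05, so each was selected for a difference between the libraries, and how the other 35 behaved is not known here.

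Messenger RNA was sequenced from Six2-positive nephron progenitor cells, sorted by flow cytometry from mouse embryonic kidneys at embryonic day 15.5, with 1 library for each genotype. The WT library came from embryos with the genotype Six2CreGFP+;p53+/+ and the KO library from embryos with Six2CreGFP+;p53f/f, both on a mixed background of CD1 and C57BL. Both groups carry the Six2 transgene, which makes Cre and GFP in Six2-expressing cells, so p53 is lost in the KO group only in cells of that lineage. The number of embryos behind each library, their sex and any pooling are not stated in the labels. Values are read densities in RPKM, reads per kilobase of gene scaled to library size, at an implied depth of about 91200000 reads in WT and 85600000 reads in KO.

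Immediate early genes are switched on within minutes of a growth factor, stress or injury signal, without new protein synthesis, and most code for transcription factors. Heat shock chaperones fold new or damaged proteins: Hsp70 proteins bind unfolded chains, J-domain proteins bring them substrates and stimulate their ATPase, and Hsp90 proteins complete the folding of kinases and receptors. Both groups are also known to be induced while a tissue is dissociated into single cells, a step that comes before any sort.

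The libraries were first checked against their labels and against markers of other cells. Trp53 was at 33.9 RPKM (WT) and 5.38 (KO), and Six2 was at 482 and 509 RPKM. Listed markers of other cells were lower in KO for 15 of 15 stromal genes (summed density 309 RPKM in WT, 139 in KO), 15 of 15 endothelial (35.9, 15.9), 12 of 12 leukocyte (17.5, 2.85) and 10 of 10 erythroid genes (633, 23.9). The same held for 13 of 13 ureteric bud genes (61.6, 34.7) and 11 of 12 podocyte and tubule genes (78.5, 18.8). None was at 0, and the lowest in KO was Epb4.2, at 0.0108 RPKM. Of all listed genes, 63.9% were lower in KO. At least 1.5-fold lower were 14 stromal, 7 endothelial, 7 leukocyte, 6 erythroid, 5 ureteric bud and 8 podocyte and tubule genes. Of all listed genes, 5.49% were. Of 15 listed progenitor markers, 7 were higher and 8 lower, with a summed density of 1486 RPKM in WT against 1532 in KO. The part of these other cells in the values below was not tested, and in bulk RNA fewer cells of a type cannot be told apart from less RNA per cell.

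The levels of the 52 genes ranged widely in both libraries, and the size of most differences was small. Their summed density was 3222 RPKM in WT against 3272 in KO, which is 0.918% and 0.965% of the density of all listed genes. Of the 52, 30 were higher and 22 lower in KO, where 36.1% of all listed genes were higher and 63.9% lower. Of the 31 with a mean density at or above the median of the table, 7.30 RPKM, 21 were higher and 10 lower, where 44.2% and 55.8% of all listed genes above that level were. The median log2 difference, log2(KO + 1) minus log2(WT + 1) on the RPKM scale, was 0.082, against -0.11 over all listed genes. Only Fosb was at least 1.5-fold higher on this scale, where 0.951% of all listed genes were, and none of the 52 was at least 1.5-fold lower, where 5.49% of all listed genes were. At a log2 difference of at least 0.32, 7 were higher (5.61% of all listed genes) and 6 lower (15.8%). With a single library for each genotype there is no replicate spread and no test, so these counts describe the pair of libraries and not the genotypes.

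The order of the levels was nearly the same in both libraries. The highest 6 genes were Ier2, Egr1, Jund, Fos, Hspa5 and Jun, in that order in WT and in KO. Below them, Fosb went from rank 11 in WT to rank 7 in KO, and Junb from rank 8 to rank 11. The largest change of rank was 9 places, for Hspa12a, which went from rank 34 to rank 43. The mean density of both libraries was above 100 RPKM for 11 of the 52 genes.

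**Figure D1:**
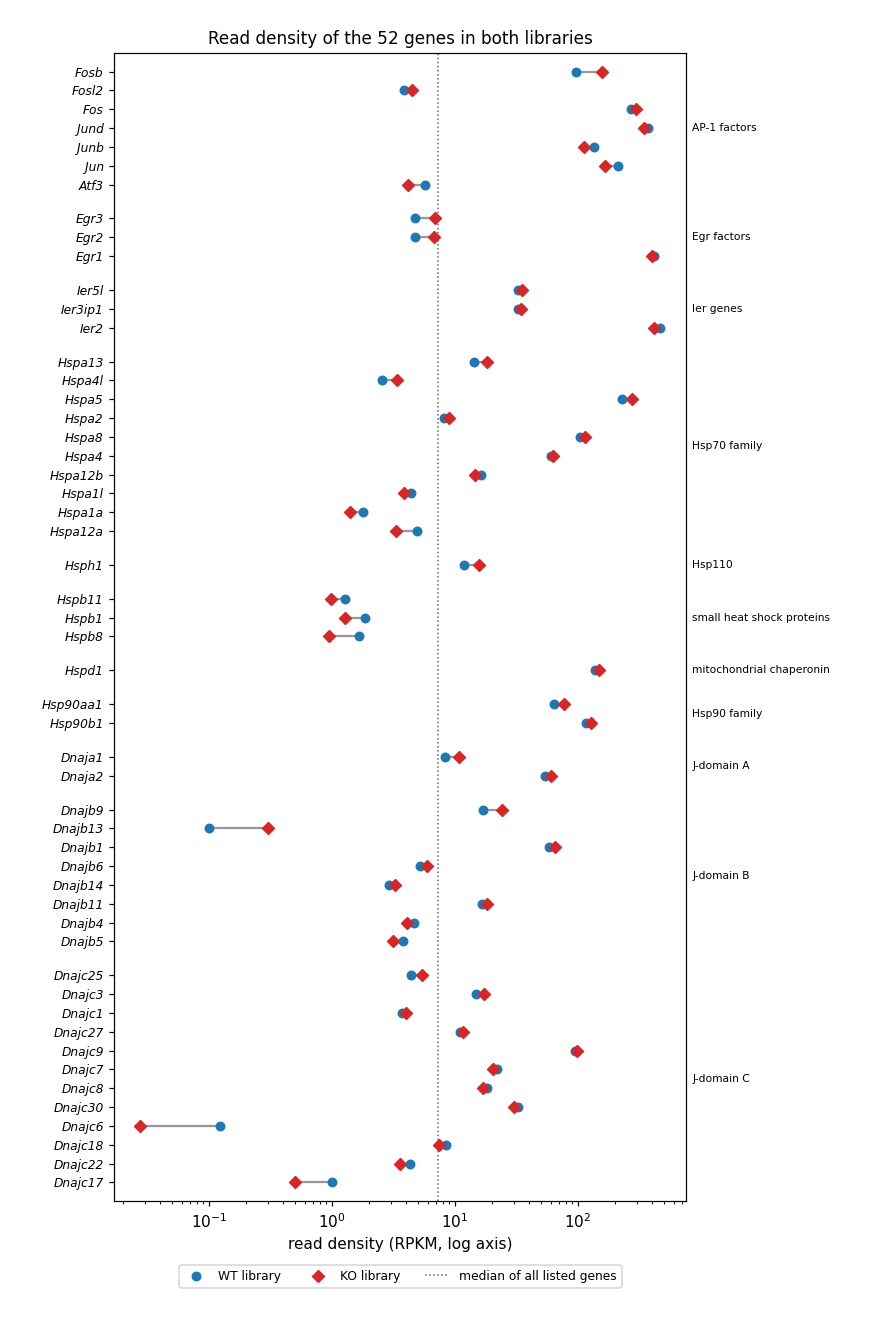
Read density in RPKM (log axis) of each of the 52 genes in the WT library (circles) and the KO library (diamonds), grouped by family, with the median of all listed genes as a dotted line. The symbols of most genes nearly touch, while Fosb stands at 96.3 RPKM (WT) and 156 (KO), and the small heat shock genes lie below 2 RPKM in both libraries.

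Promoter sequences are shown for 7 of the genes because they hold the named binding elements or belong to the genes that differed most. RefSeq promoters (GRCm38.p6) matched 42 of the 52 genes, and Egr3, Egr1, Ier3ip1, Ier2, Hspa13, Hspa8, Hsp90aa1, Dnajc30, Dnajc18 and Dnajc22 were not matched. Both strands of the 250 bases before the start were searched for a heat shock element core (GAANNTTC), a longer form that contains it (the core, 2 further bases and GAA), the cAMP response element (TGACGTCA), the AP-1 site (TGACTCA), the CArG box and the endoplasmic reticulum stress element (CCAAT, 9 bases of any kind, CCACG). Capitals mark every match below, and bases that lie inside the gene in another annotation were left out, except in the 30-base stretches.

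Fosb, the gene with the largest difference, held none of these letters in chr7:19310052-19310295, minus strand, and Jun, which was lower in KO, held a heat shock element core in chr4:95052223-95052472, minus strand.
Fosb: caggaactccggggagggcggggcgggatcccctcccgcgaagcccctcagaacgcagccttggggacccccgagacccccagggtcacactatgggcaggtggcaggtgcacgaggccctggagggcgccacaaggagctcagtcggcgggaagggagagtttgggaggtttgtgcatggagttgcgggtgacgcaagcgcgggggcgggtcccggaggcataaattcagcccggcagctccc
Jun: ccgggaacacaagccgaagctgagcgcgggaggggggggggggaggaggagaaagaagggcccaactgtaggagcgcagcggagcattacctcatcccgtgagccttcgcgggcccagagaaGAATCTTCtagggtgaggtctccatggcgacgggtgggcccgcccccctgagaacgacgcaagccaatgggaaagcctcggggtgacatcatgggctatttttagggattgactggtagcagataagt

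Hspb1 had 2 heat shock element cores in chr5:135887669-135887918, plus strand, and Dnajb6 was the only gene of the 42 with the longer form, in chr5:29735844-29735873, plus strand.
Hspb1: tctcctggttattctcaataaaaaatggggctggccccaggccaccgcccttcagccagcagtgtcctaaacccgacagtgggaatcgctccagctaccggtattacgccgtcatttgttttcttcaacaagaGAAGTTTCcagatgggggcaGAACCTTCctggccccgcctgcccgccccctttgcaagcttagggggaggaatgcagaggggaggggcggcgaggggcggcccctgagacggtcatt
Dnajb6: agctccgaGAATCTTCCGGAAcgctagacc

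The endoplasmic reticulum stress element was found in Hspa5 (chr2:34772020-34772049, plus strand), Hsp90b1 (chr10:86705510-86705694, minus strand, 2 matches on opposite strands) and Dnajc3 (chr14:118937682-118937931, plus strand).
Hspa5: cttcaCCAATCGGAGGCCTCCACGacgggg
Hsp90b1: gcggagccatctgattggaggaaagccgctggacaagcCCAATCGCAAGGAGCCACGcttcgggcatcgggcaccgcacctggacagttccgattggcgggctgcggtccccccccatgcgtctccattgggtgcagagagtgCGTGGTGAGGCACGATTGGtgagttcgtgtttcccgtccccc
Dnajc3: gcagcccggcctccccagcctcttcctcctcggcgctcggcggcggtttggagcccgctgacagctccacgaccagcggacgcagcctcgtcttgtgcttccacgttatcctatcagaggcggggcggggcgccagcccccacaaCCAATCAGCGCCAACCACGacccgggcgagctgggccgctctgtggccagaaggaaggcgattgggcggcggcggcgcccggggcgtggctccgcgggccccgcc

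The heat shock element core was present in 8 of the 42 promoters (19.0%), against 6.78% of 27025 RefSeq promoters taken 1 per gene. The 8 genes were Fosl2, Jun, Ier5l, Hspa1a, Hspb1, Dnaja1, Dnajb6 and Dnajc27, of which 5 were higher and 3 lower in KO. Of all listed genes, 36.1% were higher. The longer form was in 108 of the 27025 promoters. The cAMP response element was in 1 of the 42, Dnajc27 (1.62% of all promoters), the AP-1 site in 1, Hspa5 (4.43%), and the CArG box, the site of serum response factor, in 0 of the 42 (1.40%). The endoplasmic reticulum stress element, which was searched after the values were seen, was in 3 of the 42 (7.14%) and in 0.122% of all promoters, and the 3 genes were higher in KO on the deposited densities. After the GC and length correction given below, Hsp90b1 (-0.11) and Dnajc3 (-0.056) were below 0, where the median of all listed genes was -0.11. These are matches of letters in short windows, and they say nothing about whether a factor was bound.

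The Fos and Jun genes differed in opposite directions on the deposited densities. Their proteins pair to form the AP-1 transcription factor, in which a Fos protein needs a Jun partner, whereas Jun proteins can also pair with each other. The summed density of the 3 listed Fos genes was 369 RPKM (WT) and 455 (KO), a ratio of 1.24, and that of the 3 Jun genes was 719 and 625 RPKM, a ratio of 0.868. Of all listed genes, 36.1% were higher and 63.9% lower in KO. All 3 Fos genes were higher and all 3 Jun genes lower in KO on the deposited densities. When both libraries were centred on the median difference of all listed genes, or after the correction for base composition described below, Jund had a difference just above 0 (0.017 and 0.028), while the other 5 kept their direction.

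Fosb (ENSMUSG00000003545, chromosome 7, 19302721 to 19310045, minus strand), which codes for a Fos protein that accumulates with repeated stimulation, was at 96.3 RPKM in WT against 156 in KO. Its ratio was 1.62 (95% exact interval 1.60 to 1.64, counting error only), and its log2 difference of 0.69 was higher than 99.3% of those of all listed genes. In the authors' deposited table it was 1.69-fold higher in KO, after their own further scaling between the libraries. Fos (ENSMUSG00000021250, chromosome 12, 85473890 to 85477273, plus strand), the founding member of the family, was at 269 and 295 RPKM, a ratio of 1.10 (1.09 to 1.11). Fosb thus went from 96.3 against 269 RPKM of Fos in WT to 156 against 295 in KO. Fosl2, which codes for the Fos-related protein Fra-2, was far lower in level at 3.84 and 4.50 RPKM.

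Jun (ENSMUSG00000052684, chromosome 4, 95049034 to 95052222, minus strand), the main partner of Fos, was at 212 RPKM (WT) and 167 (KO), a ratio of 0.787 (0.778 to 0.797). Junb (ENSMUSG00000052837, chromosome 8, 84976909 to 84978748, minus strand), a Jun protein that can oppose Jun in growth control, was at 136 and 111 RPKM, a ratio of 0.815 (0.801 to 0.830). Jund, the family member that is expressed most constantly in resting cells, was at 371 and 347 RPKM, a ratio of 0.934 (0.923 to 0.946). The 3 Jun genes have no intron, their exons overlap exons of a gene on the opposite strand in the annotation, and the strand used in counting is unknown here, so reads of those genes may be included. Atf3, a stress-induced factor of the same superfamily and a known p53 target, was low, at 5.69 RPKM in WT against 4.14 in KO. Its log2 difference of -0.38 was the lowest of the 13 immediate early genes.

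The 3 Egr genes, zinc finger factors that answer to growth factor and MAP kinase signals, were split by level. Egr1, the second most abundant of the 52 genes, was at 419 RPKM (WT) and 399 (KO), a ratio of 0.954 (0.947 to 0.960). The less abundant Egr2 was at 4.73 and 6.73 RPKM, a ratio of 1.42 (1.33 to 1.52). Egr3 was at 4.70 and 6.94 RPKM, a ratio of 1.48 (1.39 to 1.57). After Fosb, Egr3 and Egr2 had the largest positive log2 differences of the group together with Dnajb9 (0.48, 0.43 and 0.48), and both were under the median level of the table. In the authors' deposited table, which carries a further scaling of 1.04, Egr3 was 1.54-fold higher, Egr2 1.48-fold higher and Egr1 1.01-fold lower in KO.

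The Ier genes differed by small amounts. Ier2, a short intronless gene for a nuclear protein, had the highest level of all 52, at 468 RPKM (WT) and 417 (KO), a ratio of 0.891 (0.881 to 0.901). Its relative Ier5l was at 32.6 and 34.95 RPKM. Ier3ip1 was at 32.6 and 34.6 RPKM, and it fits the name pattern only, since it codes for a small membrane protein of the secretory pathway and is not itself an immediate early gene. In all, 7 of the 13 genes of these 3 families, Ier3ip1 included, were higher and 6 lower, where 36.1% of all listed genes were higher and 63.9% lower. Their summed density was 2055 RPKM in WT against 1984 in KO.

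Other early response genes, from a list of 36 names of which 27 are in the table, held genes in both directions. Of the 27, 16 were higher and 11 lower in KO, where 36.1% of all listed genes were higher. Of these, 1 was at least 1.5-fold higher (0.951% of all listed genes) and 3 at least 1.5-fold lower (5.49%), and their median log2 difference was 0.14. Klf4, a zinc finger factor, was at 13.8 RPKM (WT) and 22.3 (KO), a log2 difference of 0.65. Zfp36, which codes for a protein that destabilizes messenger RNA of cytokines and other early genes, was at 84.3 and 53.9 RPKM, a log2 difference of -0.63. Btg2, an antiproliferative gene and known p53 target, was at 77.7 and 49.97 RPKM, a log2 difference of -0.63.

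**Figure D2:**
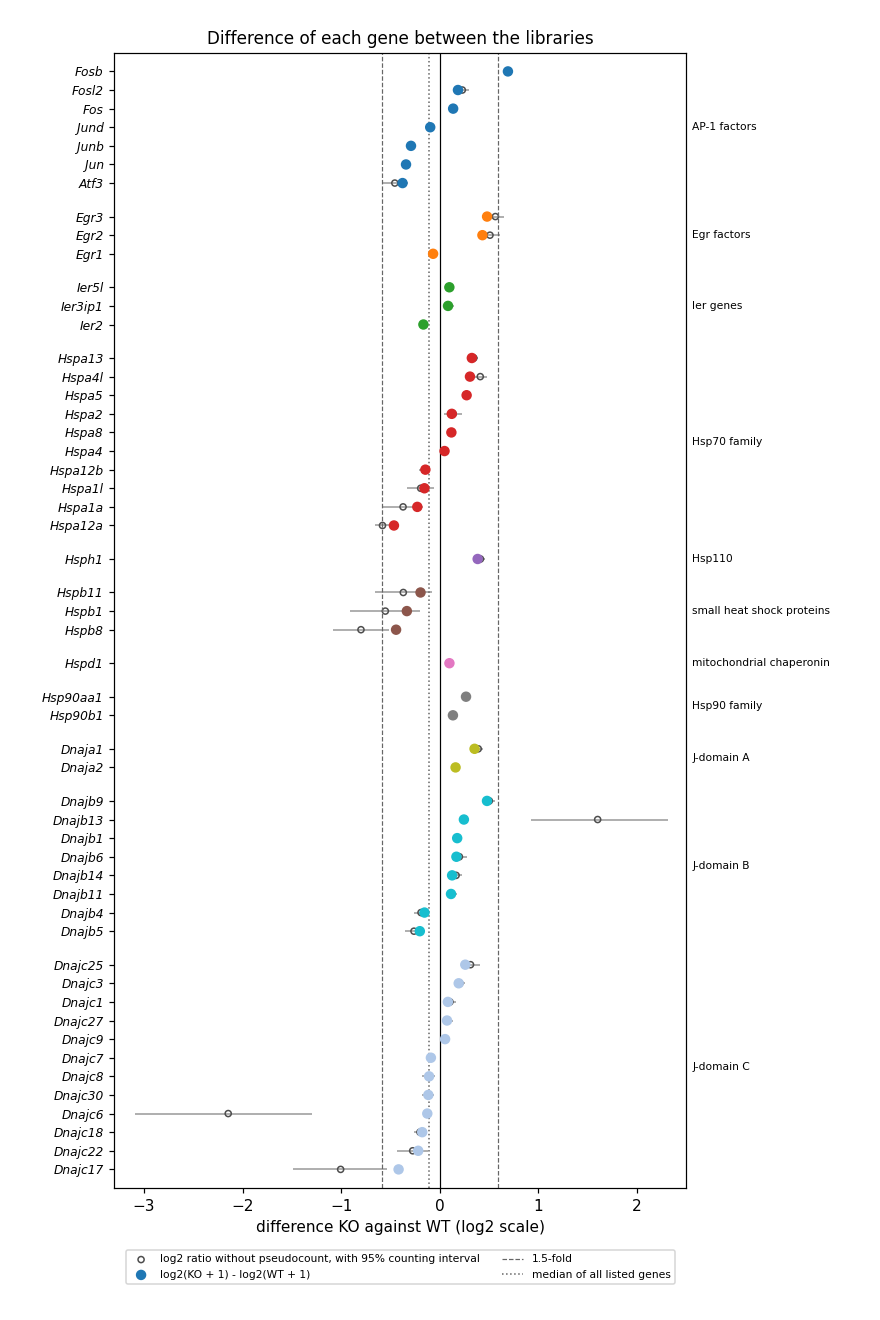
Difference of each of the 52 genes between KO and WT on the log2 scale: filled circles are log2(KO + 1) minus log2(WT + 1), open circles the ratio without the added 1, with its 95% counting interval, dashed lines 1.5-fold and the dotted line the median of all listed genes. Fosb is the only filled circle beyond 1.5-fold, and the open circles of Dnajb13, Dnajc6 and Dnajc17 lie far from their filled ones because these genes are at or below 1.01 RPKM.

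Of the 39 chaperone genes, 23 were higher and 16 lower in KO, with a median log2 difference of 0.081 and none past 1.5-fold, where 36.1% of all listed genes were higher. After the GC and length correction given below, 18 were higher and 21 lower, with a median of -0.027. Of all listed genes, 23.8% were higher after that correction, with a median of -0.11. Their summed density was 1167 RPKM in WT against 1288 in KO. The more abundant ones tended to be the higher ones: across the 39 genes Spearman's rho between mean density and log2 difference was 0.45, which is a description across genes of the same 2 libraries, and the same value over all listed genes with a gene model was 0.22.

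Among the Hsp70 genes, 6 of 10 were higher, where 36.1% of all listed genes were. After the correction 4 of 10 were, with a median of -0.025, against 23.8% and -0.11 for all listed genes. Hspa5, which codes for BiP, the Hsp70 of the endoplasmic reticulum (ENSMUSG00000026864, chromosome 2, 34771970 to 34776531, plus strand), was the most abundant chaperone, at 229 RPKM in WT against 277 in KO. Its ratio was 1.21 (1.20 to 1.22), and it held the stress element shown above. Hspa8, the constitutive cytosolic Hsp70, was at 104 and 113 RPKM, a ratio of 1.09 (1.07 to 1.10). Hspa13, an Hsp70-like ATPase of the microsomes, was at 14.3 and 18.1 RPKM. The values of Hspa8 are uncertain because the gene has processed copies elsewhere in the genome and how reads with several matches were treated is unknown here.

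The stress-inducible Hspa1a, by contrast, had the lowest level of the 10 Hsp70 genes in both libraries, at 1.80 RPKM (WT) and 1.39 (KO), a ratio of 0.772 (0.671 to 0.887). Its twin Hspa1b, nearly identical in sequence, is not analysed here, so reads shared by the pair may be missing from this value. Hspa1l, a neighbour of Hspa1a known mainly from testis, was at 4.39 and 3.83 RPKM. Hspa12a, a distant Hsp70 relative, was at 4.93 and 3.29 RPKM, and its log2 difference of -0.47 was the lowest of all 52. Its relative Hspa12b was at 16.2 and 14.5 RPKM. Hspa2 was at 8.15 and 8.95 RPKM.

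The genes of the Hsp110 group, large Hsp70 relatives that recharge Hsp70 with ATP, were all higher in KO on the deposited densities. Of all listed genes, 36.1% were higher. Hsph1 was at 11.8 RPKM (WT) and 15.8 (KO), a ratio of 1.33 (1.29 to 1.37) and a log2 difference of 0.38. Hspa4 was at 60.4 and 62.4 RPKM, a ratio of 1.03 (1.02 to 1.05). Hspa4l was at 2.54 and 3.38 RPKM, a ratio of 1.33 (1.26 to 1.40). Hspa4 and Hspa4l are counted among the 10 Hsp70 genes above because of their names. The 3 differences ranged from 0.047 to 0.38, and those of Hspa4 and Hspa4l were below 0 in the GC and length correction given below.

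Both listed Hsp90 genes and the listed mitochondrial chaperonin were higher on the deposited densities, where 36.1% of all listed genes were. After the GC and length correction, Hsp90b1 was at -0.11, and the median of all listed genes was also -0.11. Hsp90aa1, the inducible cytosolic Hsp90, was at 63.4 RPKM (WT) and 76.3 (KO), a ratio of 1.21 (1.18 to 1.23). Hsp90b1, the Hsp90 of the endoplasmic reticulum, was at 116 and 128 RPKM, a ratio of 1.10 (1.08 to 1.11). Hspd1, which codes for the mitochondrial Hsp60, was at 138 and 148 RPKM, a ratio of 1.07 (1.05 to 1.09). Hsp90aa1 and Hspd1 share sequence with processed copies too.

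The small heat shock genes, most of whose proteins hold unfolded proteins without ATP, were low in both libraries. All 3 were lower in KO, where 63.9% of all listed genes were. Hspb8 was at 1.65 RPKM (WT) and 0.946 (KO), a ratio of 0.574 (0.470 to 0.699). Hspb1, whose promoter with its 2 heat shock element cores is printed above, was at 1.86 and 1.27 RPKM, a ratio of 0.682 (0.533 to 0.869). Its values are uncertain too, because its processed copy Hsp25-ps1 was at 4.54 and 2.99 RPKM and the treatment of reads with several matches is unknown. Hspb11 was at 1.28 and 0.987 RPKM. It is counted here because of its name, and its protein is a part of the intraflagellar transport complex of cilia. These 3 genes rest on an estimated 112 to 293 reads in a library, so their intervals are wide. The genes of the other cell types named above, which were lower in KO too, could hold some of these reads, and that was not tested.

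The 22 J-domain genes are described by class. Class A and B proteins, which resemble the bacterial DnaJ most closely, are the general partners of Hsp70, whereas class C proteins share only the J domain and serve particular tasks. Of the 10 class A and B genes 8 were higher, or 7 after the correction, and of the 12 class C genes 5 were, or 4 after it and 7 with centring. The share over all listed genes was 36.1%, or 23.8% after the correction, and with centring 5308 of them were higher and 5308 lower. The difference between the classes was not tested. The 2 class A genes were Dnaja1, at 8.24 RPKM in WT against 10.8 in KO (ratio 1.31, 1.27 to 1.35), and Dnaja2, at 53.8 and 60.2 RPKM (ratio 1.12, 1.09 to 1.15). Dnaja1 overlaps exons of other genes on the opposite strand.

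In class B, Dnajb9 (ENSMUSG00000014905, chromosome 12, 44205897 to 44210068, minus strand), a cofactor of BiP, had the largest positive log2 difference of the 39 chaperone genes on the scale with 1 RPKM added. Without the added 1, Dnajb13 had a higher ratio, and after the correction Dnajb13 (0.29) and Dnajb1 (0.25) were above Dnajb9 (0.22). The densities of Dnajb9 were 16.97 RPKM (WT) and 24.0 (KO), a ratio of 1.42 (1.36 to 1.48) and a log2 difference of 0.48. Dnajb1, the heat-inducible Hsp40 that works with cytosolic Hsp70, was at 57.7 and 65.4 RPKM, a ratio of 1.13 (1.11 to 1.16). Dnajb11, a BiP cofactor in the lumen of the reticulum, was at 16.6 and 18.1 RPKM. Under the median level of the table, Dnajb6 (5.21 and 5.98 RPKM) and Dnajb14 (2.89 and 3.24 RPKM) were higher in KO. The cytosolic Dnajb4 (4.67 and 4.09 RPKM) and Dnajb5 (3.76 and 3.13 RPKM) were lower. Dnajb13, a gene of sperm and cilia, was almost silent at 0.0997 and 0.302 RPKM, and its ratio of 3.03 (1.89 to 4.98) rests on an estimated 25 and 71 reads. Its exons overlap those of Ucp2 on the opposite strand, so some of these reads may belong to Ucp2.

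Class C held genes with unrelated tasks, and most differed by little. Dnajc9, a chaperone of histones H3 and H4, was the most abundant, at 95.1 RPKM (WT) and 98.7 (KO), a ratio of 1.04 (1.02 to 1.06). Dnajc3, a reticulum cofactor that also inhibits the stress kinase PERK, was at 14.9 and 17.1 RPKM, a ratio of 1.15 (1.11 to 1.19). Dnajc7, which bridges Hsp70 and Hsp90, was at 21.9 and 20.5 RPKM. The splicing-associated Dnajc8 was at 18.4 and 16.96 RPKM, and the mitochondrial Dnajc30 at 32.7 and 30.1 RPKM. Dnajc27, with a GTPase domain beside its J domain, was at 10.9 and 11.5 RPKM, and Dnajc18 at 8.48 and 7.38 RPKM.

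The remaining class C genes were under the median level of the table. Dnajc25 was at 4.37 RPKM in WT against 5.42 in KO, Dnajc1 at 3.73 and 4.01, and Dnajc22 at 4.33 and 3.58. Dnajc17, which is linked to splicing, was at 1.01 and 0.501 RPKM, a ratio of 0.498 (0.355 to 0.688). Dnajc6, which codes for auxilin of clathrin uncoating in nerve cells, was at 0.122 and 0.0277 RPKM, a ratio of 0.226 (0.117 to 0.406) from an estimated 66 and 14 reads. Without the added 1, 3 of the 52 genes were at least 1.5-fold lower (Dnajc6, Dnajc17 and Hspb8) and 2 at least 1.5-fold higher (Dnajb13 and Fosb), where 22.6% and 4.38% of all listed genes were.

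Some of the genes whose proteins work in the endoplasmic reticulum are described together. These are Hspa5, Hspa13, Hsp90b1, Dnajb9, Dnajb11, Dnajb14, Dnajc1 and Dnajc3, a set put together after the values were seen, so that its count is a description only. The set is not complete, and Dnajc18, which was left out of it, was lower in KO (8.48 RPKM in WT, 7.38 in KO). All 8 were higher, where 36.1% of all listed genes were, with log2 differences from 0.081 to 0.48 and a median of 0.16. Their summed density was 415 RPKM in WT against 489 in KO. None of them reached 1.5-fold. With GC content and length taken into account, 5 of the 8 were above 0, where 23.8% of all listed genes were. Their median was then 0.016 against -0.11 for all listed genes. Of a further list of 28 folding and unfolded protein response genes of the reticulum, 22 are in the table, of which 16 were higher and 6 lower, 1 of them by at least 1.5-fold, with a median of 0.11 (13 higher and 9 lower after the correction). Ppp1r15a, whose product reverses the phosphorylation of eIF2 alpha, was at 82.6 and 111 RPKM, a log2 difference of 0.42. Sdf2l1, a BiP partner, was at 32.2 and 40.5 RPKM, and the disulfide isomerase gene Pdia6 went the other way, at 59.8 and 51.1 RPKM.

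The cytosolic partners of these chaperones were taken from further lists. Of 30 names for heat shock factors and cochaperones of Hsp90 or Hsp70, 23 are in the table, with 13 higher, 10 lower and none past 1.5-fold. Their median log2 difference was 0.084. After the correction 8 were higher and 15 lower, with a median of -0.045. Of all listed genes, 36.1% were higher before the correction and 23.8% after it, where their median was -0.11. The factor gene Hsf1 is not in the table, and its relative Hsf2 was at 12.2 RPKM in WT against 13.9 in KO. St13, an Hsp70 cofactor, was at 31.7 and 38.5 RPKM, Chordc1, a partner of Hsp90, at 23.9 and 28.3, and Bag4, of the Hsp70 exchange factors, at 11.8 and 13.9. Hsf2, Chordc1 and Bag4 had values below 0 after the correction (-0.14, -0.073 and -0.034). Of 14 names for the cytosolic chaperonin and prefoldin, 10 are in the table, with 4 higher and 6 lower and a median of -0.042. That majority turned to 7 higher and 3 lower with the authors' scaling, where 3964 of all listed genes were higher and 6653 lower. With centring it was 8 higher and 2 lower, where 5308 of all listed genes were higher and 5308 lower. The prefoldin subunit gene Vbp1 was at 20.3 and 30.8 RPKM, a log2 difference of 0.58, whereas the subunit genes Pfdn2 (26.2 and 21.5 RPKM) and Pfdn1 (74.5 and 61.6 RPKM) were lower.

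The differences of these genes ran with base composition. GC content of the longest transcript, from GENCODE vM21, ranged from 39.04% for Dnajb4 to 67.1% for Jund. Spearman's rho between GC content and log2 difference was -0.44 across the 52 genes, and -0.42 across all 10497 listed genes with a gene model, as a description across genes that share the same 2 libraries. Of the 26 genes at or under the median GC content of the group, 20 were higher in KO, and of the 26 above it, 10 were. Of all listed genes, 36.1% were higher. Among the immediate early genes, the 5 intronless ones (Jun, Junb, Jund, Ier2 and Ier5l) had a median of -0.17 and the 8 with introns a median of 0.16. After the GC and length correction given below, these medians were -0.041 and 0.18. Other listed protein-coding genes with 1 exon had a median of -0.115 before the correction.

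**Figure D3:**
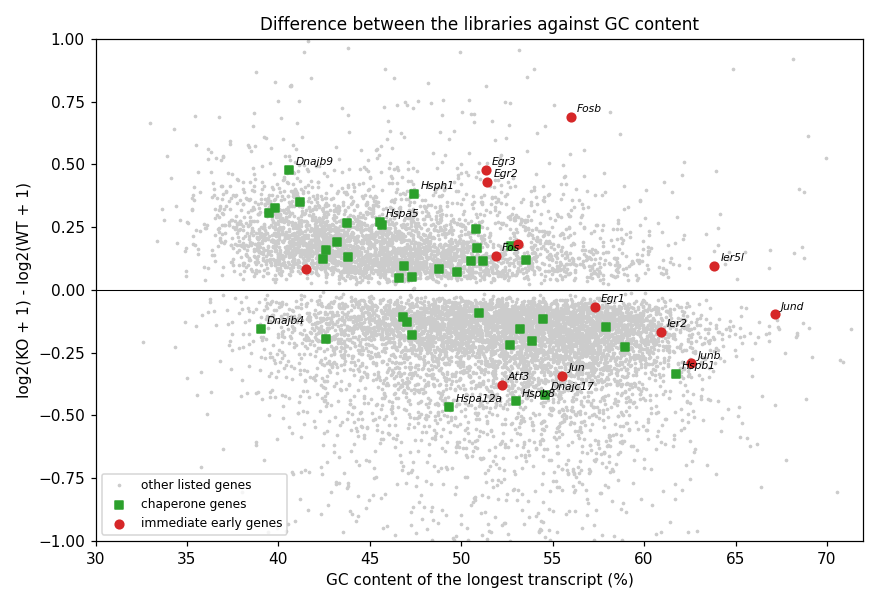
Log2 difference between KO and WT against GC content (%) of the longest transcript, for immediate early genes (red circles), chaperone genes (green squares) and all other listed genes (grey), with 205 listed genes beyond 1 on the log2 scale outside the frame. Fosb, at a GC content of 55.98%, lies above most genes of its GC content, and the empty band around 0 reflects the choice of listed genes by p-value.

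To take this into account, the median difference of listed genes in the same GC and length bin was subtracted from each gene, and the overall median was then restored. The median of the 52 genes then went from 0.082 to -0.012, against -0.11 for all listed genes, with 25 above and 27 below 0, where 23.8% of all listed genes were above 0. Fosb (0.69 before, 0.70 after), Egr3 (0.48 and 0.48) and Egr2 (0.43 and 0.48) kept their differences. So did Jun (-0.34 and -0.28), Junb (-0.29 and -0.21) and Atf3 (-0.38 and -0.29), though each was smaller in size. Some chaperones with low GC content came close to 0: Dnaja1 went from 0.35 to 0.034, Hspa13 from 0.32 to 0.015, Hsp90aa1 from 0.27 to 0.018 and Hspa4l from 0.31 to -0.013. Dnajb4, with the lowest GC content, went away from 0, from -0.16 to -0.47. Dnajb9 (0.48 and 0.22), Hsph1 (0.38 and 0.19) and Hspa5 (0.27 and 0.12) kept a positive value, and Dnajb1 went from 0.18 to 0.25. Jund, Ier3ip1, Hspa4, Hspa4l, Hsp90b1, Dnajb14 and Dnajc3 changed sign. The correction rests on listed genes only, which leave a gap around 0, so values near 0 after it are rough.

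**Figure D4:**
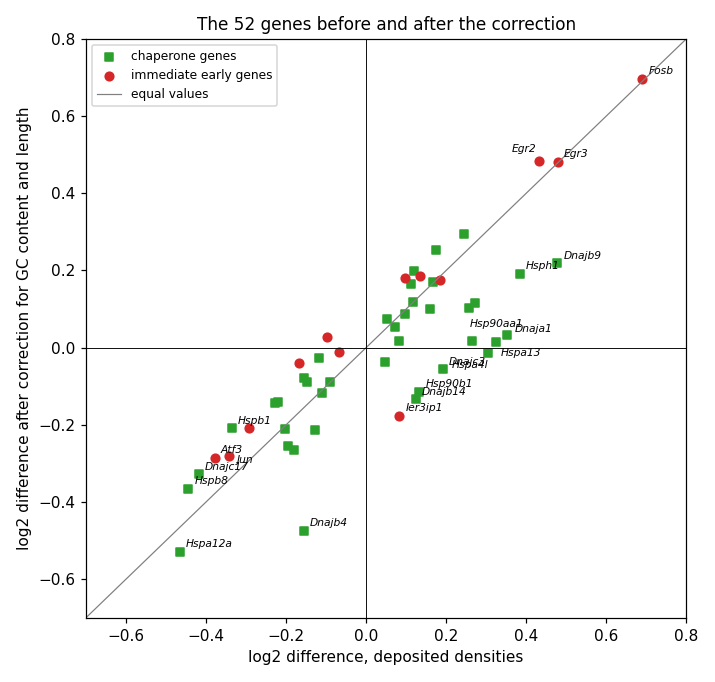
Log2 difference of each of the 52 genes on the deposited densities (x axis) and after GC and length correction (y axis), with a line of equal values. Fosb, Egr2 and Egr3 stay near the line at the upper right, while Dnaja1, Hspa13 and Hsp90aa1 drop to near 0.

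In the authors' deposited table, significance did not rank these genes by size. There the corrected p-value was printed as 0 for 13 of the 52 genes, among them Fosb at 1.69-fold and Egr1 at 1.01-fold. It was also printed as 0 for 1998 of all 10617 listed genes. Those p-values compare the 2 libraries and not the genotypes.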

How the data were processed

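The 52 genes, the gene lists and the rules were chosen with earlier results of these data known. Per the submitters' processing notes, CASAVA 1.8, Novoalign 2.08.02 and FastQC were used, with builds GRCm38 and mm10. Counting, strand and multi-match rules are not known, and 20 of the 52 genes overlap exons of another gene in the annotation. The deposited values, per the file headers, are a read density for either library (taken as RPKM from its size), a p-value and a corrected p-value, an unsigned fold ratio and its signed form, a score below 0 for genes lower in KO. The deposited fold ratio carries a further scaling of 1.04. No label says how many cultures or animals each library holds.

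The 10627 rows gave 10617 symbols (the row with the highest density was kept). Differences used a pseudocount of 1 RPKM, with a size rule of 1.5-fold and no test. Depth was inferred as a median over genes with a gene model, 148 at 0 in KO (for WT) and 67 at 0 in WT (for KO). The fold changes of these genes are whole multiples of a step within 0.01 reads. Of them, 99 and 48 gave a value within 0.5% of the median. Read estimates use GENCODE vM21 exon lengths. The 95% intervals are exact (Clopper-Pearson) and cover counting error only. The correction used 10 GC and 4 length bins. Any of the 52 could be named. Of other genes, Trp53, Six2 and the 3 of each pathway list with the largest difference above the median density were named; Hsf2 and the genes under Other observations were added after seeing values. Python 3.11.15, scipy 1.17.1 and pandas 2.3.3 were used, and the scripts were tested on simulated data. Alternatives were other pseudocounts, centring, scaling, floors, size rules and the correction.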

Additional observations from a re-analysis of the deposited data

How the results depend on the processing

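The median log2 difference of the 52 genes (0.082, against -0.11 over all listed genes) was 0.20 when both libraries were centred on the median of all listed genes. After GC and length correction it was -0.012, the opposite sign, where the median of all listed genes was still -0.11. The cause was not tested. The count of 1 gene at least 1.5-fold higher and 0 lower became 2 and 2 with a pseudocount of 0.25, 2 and 3 with no pseudocount (added after seeing the data), and 3 higher with centring. At a log2 size of 0.32 it was 7 and 6, and at 2-fold 0 higher, which follow from the size. A pseudocount of 4, the authors' scaling, and floors at the median or the 75th percentile of density kept both counts. Of 312 differences of single genes under 6 alternatives, 206 stayed within their counting interval with the same sign, and 11 changed sign: 4 with centring and 7 with the correction. No paired analysis was possible because there is 1 library in each group. No difference here has a replicate check. Genes under about 2 RPKM rest on few reads.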

Other observations

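A few listed genes related by name to these families fall outside them, and were picked after their values were seen. The pseudogene Hspa9-ps1 had 108 RPKM in WT against 112 in KO, while Hspa9 itself is not analysed here. The processed pseudogene Hsp25-ps1, a copy of Hspb1, was at 4.54 and 2.99 RPKM, above the 1.86 and 1.27 RPKM of Hspb1. For both pseudogenes, how reads that also match the parent gene were treated is unknown here. Jdp2, whose protein binds Jun and represses AP-1 sites, was at 2.47 and 1.47 RPKM, a log2 difference of -0.49. Hsbp1, which codes for a protein that binds heat shock factors, was at 90.1 and 82.7 RPKM, and Hspbap1, a partner of small heat shock proteins, at 2.39 and 1.95 RPKM.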
